A study of Mus musculus with 4 samples.

Results

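Interferon-stimulated genes are switched on when a cell is exposed to interferon, and 9 of them are described here in sorted cells of the mouse embryonic kidney: Rsad2, Ifit1, Ifit2, Ifit3, Isg15, Irf7, Oasl2, Usp18 and Bst2. Every non-control probe bearing one of these names was taken, which gave 10 probes of the 39429 on the array. Of these, 9 probes, for 8 genes, passed the filter on dim probes, as did 30012 probes of the whole array. The 9 genes were chosen on these arrays, by the log2 difference between the sorted cells, so their differences are given as a description, without a test. Expression was measured on 4 Agilent 1-colour arrays, 1 per sample, of E15.5 kidneys that carried the Six2GFP reporter, in mice of a hybrid 129 and C57BL/6 background. The groups were Six2GFP-positive cells (2 arrays), the nephron progenitors, and Six2GFP-negative cells (2 arrays), the remaining sorted cells of such kidneys. Both groups came from fluorescence-activated sorting, and the labels do not say whether the 2 samples of a group came from separate litters, so p-values measure only the spread between these samples. The labels' description field also mentions tamoxifen, of which the protocols say nothing, and no such treatment is assumed for either group. One label field gives nephron progenitor as the cell type of both groups, so the groups follow the sample titles.

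Interferons are secreted proteins that bind receptors on the cell surface; the receptors pass the signal through Janus kinases to the STAT proteins, which with Irf9 bind a short DNA element before their target genes. The products of those genes block steps of viral growth, and some of them, such as Irf7 and Usp18, raise or damp the response itself. Immune, endothelial and epithelial cells can all mount the response, and many tissues keep a low level of it without infection.

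Each value is the log2 of a probe's processed signal after scaling to the 75th percentile of its array, so that 0 means a signal equal to that percentile. The percentile stood at signals of 1432 and 1411 in Six2GFP-positive cells, against 1604 and 1588 in Six2GFP-negative cells, and 72.5% to 79.1% of spots lay well above background. The check of the sort is Six2, the transcription factor that keeps progenitors undifferentiated, which stood at 5.58 and 5.73 in positive cells, against -0.17 and -0.15 in negative cells. Cited1, a second marker of uncommitted progenitors, stood at 5.38 and 5.12 in Six2GFP-positive cells, against 0.29 and 0.60 in Six2GFP-negative cells. Both were higher in Six2GFP-positive cells, by 5.82 ± 0.098 for Six2 and 4.80 ± 0.17 for Cited1 (SE, limma adjusted p = 5.0e-04 and 5.8e-04).

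Of the 10 probes, 7 had both positive arrays below both negative arrays, none lay the other way and 3 overlapped. Over all 30012 probes that passed the filter, 27.5% lay wholly lower in Six2GFP-positive cells and 47.5% wholly higher, and nothing is read from the members' count since this contrast chose them. The probes set apart were those of Rsad2, Oasl2, Bst2, Ifit3, Irf7 and Usp18 and the brighter of the 2 probes of Isg15. The overlapping ones were Ifit1, Ifit2 and the dimmer probe of Isg15.

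**Figure D1:**
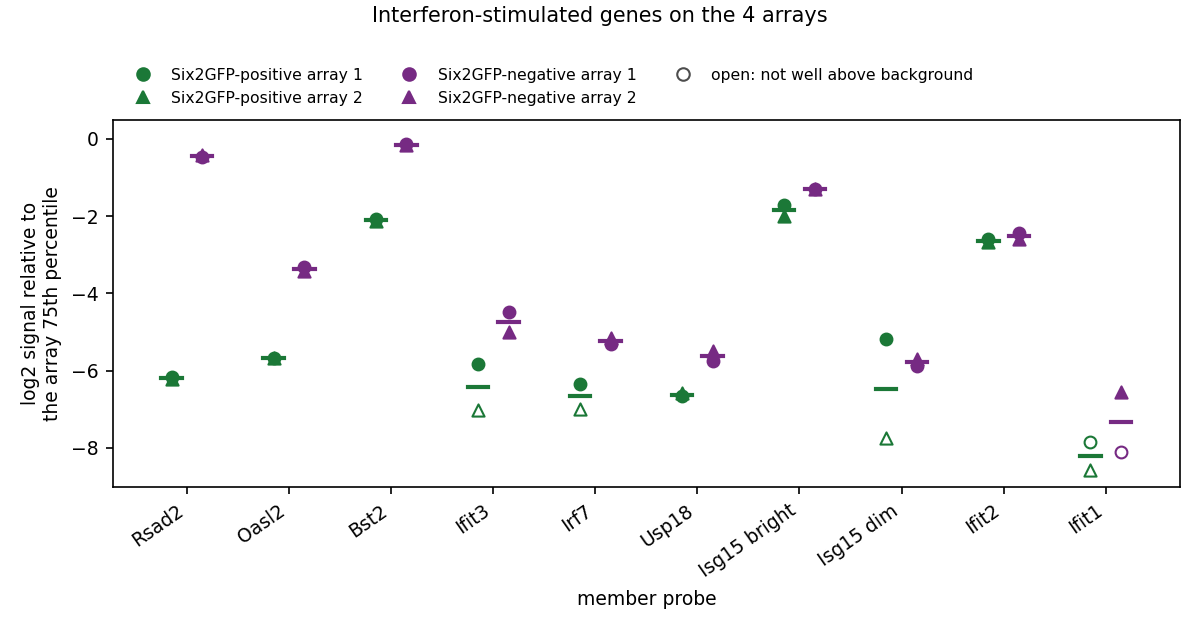
Scaled log2 signal, in units of the 75th percentile of the array (vertical axis), for the 10 member probes (horizontal axis), with Six2GFP-positive cells in green and Six2GFP-negative cells in purple; circles are array 1, triangles array 2, bars the mean of 2 arrays, and open symbols are not well above background. Rsad2 has the widest gap, -5.75, while Ifit2 and the dimmer Isg15 probe overlap and Ifit1 is open on 3 of 4 arrays.

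Promoters are shown because the DNA element through which interferon acts lies close to the start site of such genes. The 250 bases before the RefSeq start site (GRCm38.p6, read 5′ to 3′ on the gene's strand) were searched on both strands, together with the 50 bases after it, for the core of the interferon-stimulated response element: GAAA, any 2 bases, GAAA. On the opposite strand it reads TTTC, any 2 bases, TTTC. Capitals mark the matches, and overlapping matches run into each other. The sequences below are of the 5 members with a match and of Oasl2, which had none; they lie at chr12:26456453-26456702 on the minus strand for Rsad2, chr19:34640639-34640888 on the plus strand for Ifit1, chr19:34583279-34583528 on the plus strand for Ifit3, chr4:156200819-156201068 on the minus strand for Isg15, chr8:71537473-71537722 on the minus strand for Bst2 and chr5:114896684-114896933 on the plus strand for Oasl2.
Rsad2: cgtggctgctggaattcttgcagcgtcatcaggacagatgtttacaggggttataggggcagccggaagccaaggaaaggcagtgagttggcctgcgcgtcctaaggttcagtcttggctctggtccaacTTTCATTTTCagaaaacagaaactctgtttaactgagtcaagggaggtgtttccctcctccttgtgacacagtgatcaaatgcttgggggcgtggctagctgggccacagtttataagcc
Ifit1: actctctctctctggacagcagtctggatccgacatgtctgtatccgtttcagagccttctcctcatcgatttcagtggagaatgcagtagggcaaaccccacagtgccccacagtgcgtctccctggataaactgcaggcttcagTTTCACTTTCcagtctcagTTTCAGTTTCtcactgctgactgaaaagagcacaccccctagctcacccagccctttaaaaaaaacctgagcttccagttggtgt
Ifit3: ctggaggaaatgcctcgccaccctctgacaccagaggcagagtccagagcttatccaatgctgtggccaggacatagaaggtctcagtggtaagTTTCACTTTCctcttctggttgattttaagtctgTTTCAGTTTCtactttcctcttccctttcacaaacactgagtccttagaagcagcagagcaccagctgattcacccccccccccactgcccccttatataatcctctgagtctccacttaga
Isg15: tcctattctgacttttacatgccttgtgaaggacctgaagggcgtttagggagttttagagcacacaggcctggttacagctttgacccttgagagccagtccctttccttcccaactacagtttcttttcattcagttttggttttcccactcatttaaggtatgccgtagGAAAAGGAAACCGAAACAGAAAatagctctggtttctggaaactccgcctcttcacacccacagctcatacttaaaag
Bst2: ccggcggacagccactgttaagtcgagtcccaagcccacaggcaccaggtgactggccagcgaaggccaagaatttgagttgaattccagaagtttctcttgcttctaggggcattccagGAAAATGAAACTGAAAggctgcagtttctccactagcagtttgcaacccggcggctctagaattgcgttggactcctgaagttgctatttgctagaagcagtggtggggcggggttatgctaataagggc
Oasl2: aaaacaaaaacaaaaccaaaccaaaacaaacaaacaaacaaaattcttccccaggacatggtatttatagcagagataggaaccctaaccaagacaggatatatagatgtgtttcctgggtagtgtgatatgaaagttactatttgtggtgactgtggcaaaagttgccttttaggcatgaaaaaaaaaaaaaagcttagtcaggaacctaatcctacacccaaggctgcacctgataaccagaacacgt

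The core was found for 5 of the 8 members with a promoter in the table, against 1079 of 27025 genes (3.99%) and 1131 of 32851 promoters of the same length (3.44%). Rsad2 held 1 match, which began 120 bases before the start site. Ifit1 held 2 matches, beginning 104 and 85 bases before it, and Ifit3 held 2, at 156 and 122 bases. Isg15 held 3 overlapping matches at 78, 72 and 66 bases, and Bst2 held 2 overlapping ones at 130 and 124 bases. Neither of the 2 promoters of Ifit2, nor those of Irf7 and Oasl2, held the letters searched for. The longer form, the core followed by CT, stood in 3 of the 8 members, against 82 of 27025 genes (0.303%). A match is a description of the letters and not a measured binding site, and members with one include both the widest gap (Rsad2) and a gene not measurable in Six2GFP-positive cells (Ifit1).

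Among the direct antiviral effectors, Rsad2, which encodes viperin, an enzyme that makes a chain-terminating nucleotide, stood furthest apart. Its probe (mm9 chr12:27127859-27127918, minus strand, from the file) read -6.16 and -6.21 in Six2GFP-positive cells, against -0.47 and -0.41 in Six2GFP-negative cells. In processed signal these were 20.0 and 19.0 units in Six2GFP-positive cells and 1157 and 1192 units in Six2GFP-negative cells. The positive arrays differed by 0.051 and the negative arrays by 0.057, and the gap between the groups was -5.75 ± 0.086 (SE), or 53.7-fold lower in Six2GFP-positive cells. Only 20 of the 24150 genes measured had a lower difference. The probe lay well above background on all 4 arrays, although on the positive arrays its signal was close to the dimmest of any probe so called, 10.4 and 11.1 units.

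Oasl2, of the oligoadenylate synthetase family of RNA sensors, read -5.68 and -5.67 in Six2GFP-positive cells, against -3.33 and -3.43 in Six2GFP-negative cells (mm9 chr5:115362168-115362227). Its groups were narrow and apart, with a difference of -2.30 ± 0.089 (SE), 4.92-fold lower in Six2GFP-positive cells. Bst2, or tetherin, a membrane protein that holds budding virus on the cell, read -2.07 and -2.13 in Six2GFP-positive cells, against -0.14 and -0.16 in Six2GFP-negative cells (mm9 chr8:74058603-74058662). The difference was -1.95 ± 0.084 (SE), 3.86-fold lower in Six2GFP-positive cells, and again each group was tight. In the progenitors Bst2 kept processed signals of 341 and 322 units, far above the dimmest well above background.

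The 3 Ifit genes, which lie near each other on chromosome 19 and encode RNA-binding proteins that block translation of viral messages, are given one by one, and differences between them were not tested. Ifit3 (mm9 chr19:34663105-34663164) read -5.83 and -7.02 in Six2GFP-positive cells, against -4.48 and -5.00 in Six2GFP-negative cells. The groups did not overlap, but positive array 2 was not well above background and the positive arrays lay 1.18 apart, so the difference of -1.69 has a standard error of 0.47; it was -1.09 with positive array 2 left out and -2.28 with positive array 1 left out. Ifit2 (mm9 chr19:34650244-34650303) read -2.59 and -2.67 in Six2GFP-positive cells, against -2.44 and -2.60 in Six2GFP-negative cells. Positive array 1 lay above negative array 2, and the difference, -0.11 ± 0.10 (SE), turned to 0.14 under scaling to the array median and to 0.099 under quantile normalization. Ifit1 (mm9 chr19:34723796-34723855) read -7.84 and -8.58 in Six2GFP-positive cells, against -8.11 and -6.54 in Six2GFP-negative cells, and only negative array 2 was well above background. No fold is given for Ifit1, which these arrays did not measure in Six2GFP-positive cells.

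Isg15, a ubiquitin-like protein that is joined to other proteins in the response, was read by 2 probes. The brighter (mm9 chr4:155573649-155573708, minus strand) read -1.70 and -1.99 in Six2GFP-positive cells, against -1.29 on both arrays of Six2GFP-negative cells, a difference of -0.55 ± 0.13 (SE) or 1.47-fold lower in Six2GFP-positive cells, and -0.30 under scaling to the array median. The dimmer (mm9 chr4:155573533-155573552) read -5.18 and -7.75 in Six2GFP-positive cells, against -5.88 and -5.69 in Six2GFP-negative cells, so that positive array 1 was the highest of the 4 and positive array 2 the lowest. Its difference, -0.68 ± 0.91 (SE), became 0.60 with positive array 2 left out, and -1.97 with positive array 1 left out. Usp18, the protease that strips Isg15 from proteins and damps interferon signalling at the receptor, read -6.66 and -6.57 in Six2GFP-positive cells, against -5.74 and -5.49 in Six2GFP-negative cells (mm9 chr6:121220874-121220933). Usp18 was well above background on all 4 arrays, and the difference was -1.01 ± 0.13 (SE), 2.01-fold lower in Six2GFP-positive cells.

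Irf7, the transcription factor that amplifies the response by driving type I interferon genes, read -6.34 and -6.98 in Six2GFP-positive cells, against -5.32 and -5.14 in Six2GFP-negative cells (mm9 chr7:148450664-148451014, minus strand). Its positive array 2 was not well above background. The groups did not overlap, and the difference was -1.43 ± 0.25 (SE), 2.70-fold lower in Six2GFP-positive cells. Irf7, Ifit3, Usp18 and Oasl2 gave processed signals of only 10.9 to 27.9 units in the progenitors, and their differences shrank with a background correction that adds an offset (normexp): to -0.22 for Irf7, -0.38 for Ifit3, -0.13 for Usp18 and -1.10 for Oasl2. The same correction gave -3.80 for Rsad2, -1.76 for Bst2 and -0.48 for the brighter Isg15 probe.

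The samples of a group were not equally close. Among Six2GFP-positive cells, array 1 exceeded array 2 by 2.57 for the dimmer Isg15 probe, 1.18 for Ifit3, 0.74 for Ifit1, 0.64 for Irf7 and 0.28 for the brighter Isg15 probe, and the other members differed by 0.090 or less in size. The same array had the higher value for all 23 of 23 leukocyte markers, by a median of 0.54, while the median over all genes was 0.010. Between the negative arrays 20 of 23 leukocyte markers were higher on array 1, by a median of 0.22. The part of these cells in the members' values was not tested.

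**Figure D2:**
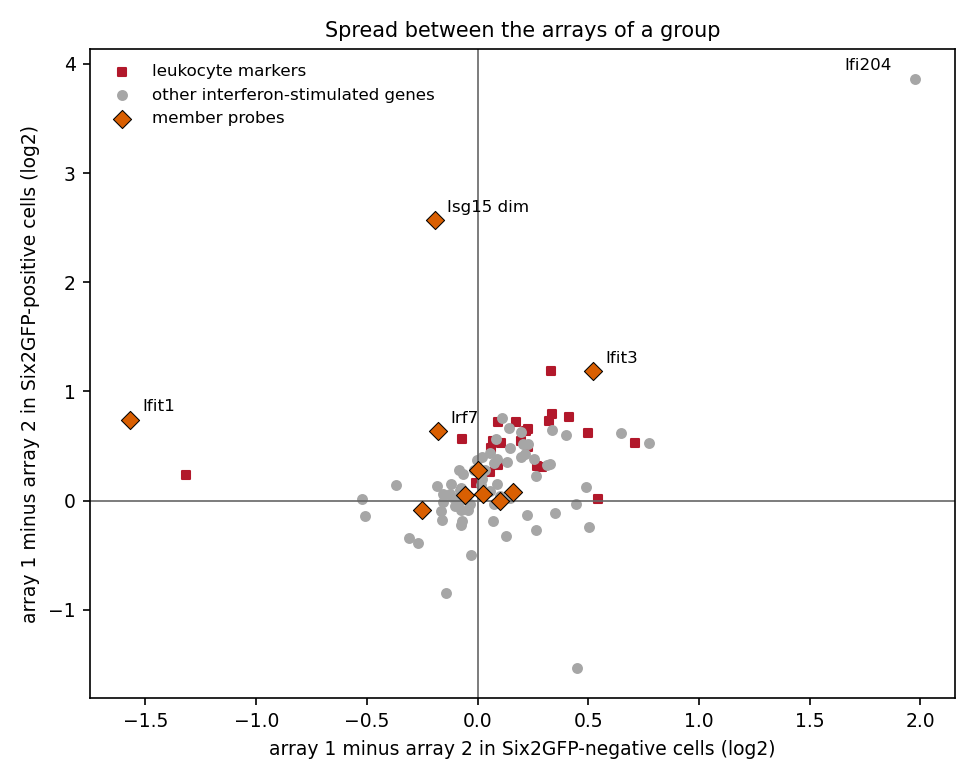
Array 1 minus array 2 (log2) within Six2GFP-positive cells (vertical axis) against the same within Six2GFP-negative cells (horizontal axis), for the members and the listed genes; colours name the lists in the legend. The dimmer Isg15 probe lies highest among the members at 2.57 and Ifi204 highest among the other interferon-stimulated genes at 3.86, while Rsad2 and Bst2 lie close to 0 on both axes.

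A list of 76 other interferon-stimulated genes, none of them members, was drawn from general knowledge with earlier results of these data known. Of these, 70 could be tested. In limma's fit over all 24150 genes, 43 of them were lower in Six2GFP-positive cells, 3 were higher and 24 did not pass an adjusted p of 0.05. Over all genes 18.3% were lower and 20.6% higher. The list's median difference was -1.09, against 0.15 over all genes tested. With 1 array left out, 32 to 39 of them were lower and 1 or 2 higher. Scaling by each array's median instead turned the split over all genes to 10756 higher and 3769 lower, and that of the list to 11 higher and 41 lower.

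**Figure D3:**
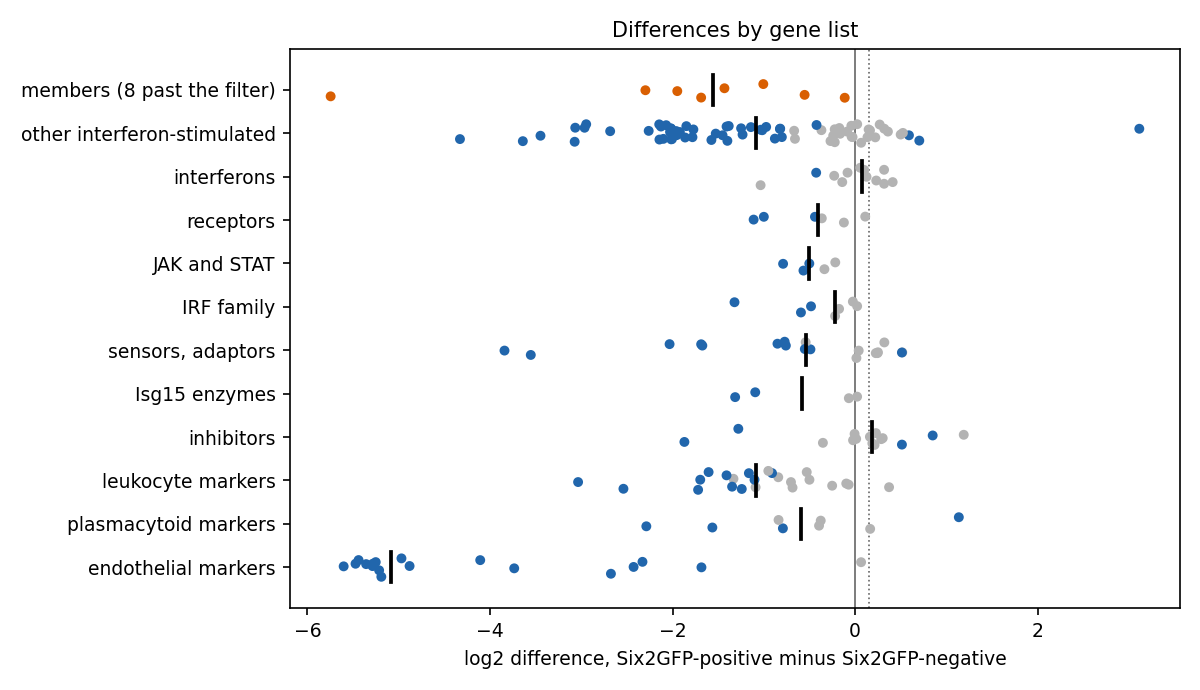
Log2 difference, Six2GFP-positive minus Six2GFP-negative (horizontal axis), of each measured gene in the lists named on the vertical axis; blue points passed limma's adjusted p of 0.05, grey points did not, orange points are the 8 members past the filter, for which no test is given, black bars are list medians and the dotted line is the median over all genes, 0.15. The other interferon-stimulated genes lie mostly left of the line with a median of -1.09, and the endothelial markers have a median of -5.08.

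The 4 lowest fitted differences in that list were those of Ifi44, Isg20, Ifi203 and Cxcl10, of which that of Ifi44 is only a bound. For Ifi44 the smallest difference under any alternative processing was -0.97. Ifi44, a cytoplasmic protein of the response, did not rise well above background in Six2GFP-positive cells, where it was at least 6.86-fold lower (limma adjusted p = 0.0106), a call lost without negative array 1 (adjusted p = 0.0582) or negative array 2 (0.0538). Isg20, an exonuclease that degrades RNA, read -3.79 and -3.94 in Six2GFP-positive cells, against -0.18 and -0.27 in Six2GFP-negative cells, a difference of -3.64 ± 0.10 (SE, limma adjusted p = 5.0e-04). Ifi203, of a family of nuclear DNA-binding proteins with near-identical copies whose signals a probe may share, differed by -3.45 ± 0.16 (SE, limma adjusted p = 8.4e-04). Cxcl10, a chemokine that draws T cells, differed by -3.07 ± 0.33 (SE, limma adjusted p = 0.0061), with only 1 of the 2 positive arrays well above background.

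The 3 genes of the list that were higher in Six2GFP-positive cells were Ddx60, Ifitm1 and Daxx. Ddx60, a helicase that aids RNA sensing, was not well above background in Six2GFP-negative cells. It was at least 1.81-fold higher in Six2GFP-positive cells (limma adjusted p = 0.0052). That call was lost under normexp with quantile scaling, where the difference was 0.38 (limma adjusted p = 0.0907). Ifitm1, a membrane protein against viral entry, rose by 0.70 ± 0.10 (SE, limma adjusted p = 0.0125), and Daxx, a histone chaperone, rose by 0.59 ± 0.086 (SE, limma adjusted p = 0.0132). The call for Ifitm1 was lost without positive array 1, positive array 2 or negative array 2 (adjusted p up to 0.0705), and that for Daxx without positive array 1, positive array 2 or negative array 1 (up to 0.0775).

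Families within the list were taken by gene name after the values were seen, and differences between them were not tested. Over all genes 18.3% were lower and 20.6% higher, and over the whole list 43 of 70 were lower. All 5 measured genes of the Parp family with its partner Dtx3l were lower, among them Parp9 at -2.10 ± 0.13 and Parp14 at -2.03 ± 0.18 (SE, limma adjusted p = 0.0015 and 0.0039). Of 11 interferon-induced GTPases, which attack vacuoles and viral particles, 9 were lower and none higher, such as Gbp2 at -2.15 ± 0.12 and Irgm2 at -2.01 ± 0.091 (SE, limma adjusted p = 0.0013 and 8.5e-04). Iigp1, 1 of the 2 that did not pass, differed by 0.024 at its brighter probe and by -2.64 at its other probe. Mx1, which did not rise well above background in Six2GFP-positive cells, was at least 1.64-fold lower there (limma adjusted p = 6.8e-04). That call was lost under normexp with the 75th percentile, where the difference was -0.22 (limma adjusted p = 0.0562). Of 6 genes of the oligoadenylate synthetase family, 3 were lower, namely Oasl1 at -2.95 ± 0.13, Oas1a at -1.78 ± 0.20 and Oas2 at -1.03 ± 0.20 (SE, limma adjusted p = 8.2e-04, 0.0071 and 0.0265). The call for Oas2 was lost without positive array 1 (adjusted p = 0.107) or positive array 2 (0.0885), under quantile normalization (0.0822), under normexp with quantile scaling (0.0522) and without a filter (0.0536).

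Of 5 genes of the immunoproteasome and the peptide transporter, which prepare antigen, 3 were lower, against 18.3% of all genes. They were Tap2 at -2.26 ± 0.27, Psmb8 at -1.85 ± 0.27 and Psmb9 at -1.02 ± 0.19 (SE, limma adjusted p = 0.0081, 0.0133 and 0.0231). The call for Psmb8 was lost without negative array 1 (adjusted p = 0.0598), and that for Psmb9 without positive array 2, negative array 1 or negative array 2 (up to 0.0893). Of the 3 Ifitm genes, Ifitm3 was lower at -1.57 ± 0.18 (SE, limma adjusted p = 0.0073), Ifitm1 was the higher one above and the remaining one did not pass. Further falls were in Lgals9, a galectin, at -2.96 ± 0.22 (SE, limma adjusted p = 0.0024), and in Zc3hav1, an antiviral RNA-binding protein. Zc3hav1 was at least 4.52-fold lower (limma adjusted p = 0.0030), and its smallest difference under any alternative processing was -0.65.

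The core of the response element stood in a promoter of 27 of the 60 other interferon-stimulated genes with one in the table (45.0%). Among those measured it stood in 16 of 32 genes that were lower in Six2GFP-positive cells and in 8 of 22 that were not.

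The genes that lie next to the members were taken from RefSeq's gene order, outside the rule for named genes. Of 16 neighbours that are not members, 13 could be tested, and 9 were lower in Six2GFP-positive cells, 2 were higher and 2 did not pass. Over all genes 18.3% were lower and 20.6% higher. Cmpk2, the kinase beside Rsad2 that is induced with it in the interferon response, read -3.80 and -3.86 in Six2GFP-positive cells, against -2.37 and -2.24 in Six2GFP-negative cells. Its difference was -1.53 ± 0.094 (SE, limma adjusted p = 0.0016). Oasl1, beside Oasl2, read -5.38 and -5.65 in Six2GFP-positive cells, against -2.61 and -2.53 in Six2GFP-negative cells. The 2 higher neighbours were Ifit1bl2, beside Ifit1, at 0.51 ± 0.10 and Phrf1, beside Irf7, at 0.37 ± 0.094 (SE, limma adjusted p = 0.0259 and 0.0462).

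Of 78 listed genes of the interferon pathway, from ligands and receptors to sensors, Isg15 enzymes and inhibitors, 68 could be tested. Set against 18.3% lower and 20.6% higher over all genes, 24 of them (35.3%) were lower in Six2GFP-positive cells and 3 (4.41%) higher. Their median difference was -0.13, against 0.15 over all genes, and with 1 array left out 14 or 15 were lower and 1 higher. Scaled by each array's median, 16 of the pathway genes were lower and 17 higher, against 3769 lower and 10756 higher of all 24150 genes.

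Among the interferon ligands, Ifnb1, Ifng, Ifne and Ifna4 did not pass the filter on dim probes, and the other 12 measured ligands ranged between -1.03 and 0.41 in difference, with a median of 0.079. Of these, Ifna16 alone passed, at -0.43 ± 0.10 (SE, limma adjusted p = 0.0426), and it lost the call with any 1 of the 4 arrays left out (adjusted p = 0.0839 to 0.174). The others were 0.41 for Ifna13, 0.32 for Ifna11, 0.32 for Ifna12, 0.23 for Ifna7, 0.13 for Ifna2, 0.10 for Ifna5, 0.057 for Ifna14, -0.083 for Ifna1, -0.14 for Ifnl3, -0.23 for Ifnk and -1.03 for Ifnab, none of them past the threshold. Some passed as higher under other settings: Ifna13 and Ifna12 under array median scaling, quantile normalization and normexp with either scaling, Ifna11 under array median scaling and normexp with the 75th percentile, and Ifna2 and Ifna5 under quantile normalization with and without normexp. With the replicate number as a block Ifna13 passed too (limma adjusted p = 0.0463). A second probe stood at -0.22 for Ifna12 and at 0.027 for Ifnl3, opposite in sign to the brighter probe given above. Ifnab was uneven, reading -3.13 and -3.17 in Six2GFP-positive cells, against -3.28 and -0.95 in Six2GFP-negative cells. The Ifna genes are near-identical copies, and a probe may read several of them.

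Among receptor chains, Ifngr1, which binds interferon gamma, was lower at -1.0 ± 0.099, and Il10rb, shared by the lambda interferons and interleukin 10, was lower at -1.11 ± 0.11 (SE, limma adjusted p = 0.0050 for each). Ifnlr1, the chain specific to lambda interferons, was lower at -0.44 ± 0.11 (SE, limma adjusted p = 0.0481), and lost the call with any 1 of the 4 arrays left out (adjusted p = 0.0786 to 0.191). The chains of the type I receptor did not pass, with differences of 0.11 ± 0.095 for Ifnar1 and -0.36 ± 0.13 for Ifnar2 (SE), nor did Ifngr2 at -0.12 ± 0.096. Scaled by each array's median, Ifnar1 passed as higher at 0.36 (limma adjusted p = 0.0490). At its brightest probe Ifnar1 read 1.60 and 1.67 in Six2GFP-positive cells, against 1.58 and 1.46 in Six2GFP-negative cells. With its 2 other probes counted, its differences ranged from -0.31 to 0.11, and the mean of probes gave -0.14.

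Among kinases and STAT proteins, Stat3, which serves many cytokines, was lower at -0.79 ± 0.086 (SE, limma adjusted p = 0.0064). The kinases Jak2 and Jak1 were lower at -0.57 ± 0.083 and -0.50 ± 0.086 (SE, limma adjusted p = 0.0135 and 0.0196), and both calls were lost with any 1 of the 4 arrays left out (up to 0.0793 and 0.108). Stat2, which carries the type I interferon signal together with Irf9, differed by -0.22 ± 0.29 and the kinase Tyk2 by -0.34 ± 0.11 (SE), and neither passed. Stat2 read -1.04 and -0.33 in Six2GFP-positive cells, against -0.64 and -0.29 in Six2GFP-negative cells, so its groups overlapped; its difference turned to 0.036 under scaling by each array's median.

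Among interferon regulatory factors other than Irf7, Irf5, which acts below Toll-like receptors in myeloid cells, was lower at -1.32 ± 0.13 (SE, limma adjusted p = 0.0045). Irf1 and Irf2, an activator and a repressor of shared targets, were lower at -0.59 ± 0.087 and -0.48 ± 0.091 (SE, limma adjusted p = 0.0136 and 0.0237), and both calls were lost with any 1 of the 4 arrays left out (up to 0.0825 and 0.121). Irf3, which starts the first wave of interferon, differed by 0.023 ± 0.13, and Irf9, the DNA-binding partner of the STAT proteins, by -0.18 ± 0.13 (SE); neither passed. Irf8 differed by -0.024 ± 0.16 and Irf4 by -0.22 ± 0.17 (SE), also without passing.

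The list of sensors also held adaptors and other proteins that act with them. Of its 19 tested genes, 10 were lower and 1 higher in Six2GFP-positive cells, against 18.3% lower and 20.6% higher over all genes. Tlr3, the endosomal sensor of double-stranded RNA, did not rise well above background in Six2GFP-positive cells and lay at least 3.34-fold lower (limma adjusted p = 0.0011). Its smallest difference under any alternative processing was -0.64. Ifih1, the cytoplasmic sensor of long double-stranded RNA, read -5.73 and -6.09 in Six2GFP-positive cells, against -2.38 and -2.34 in Six2GFP-negative cells, a difference of -3.55 ± 0.15 (SE, limma adjusted p = 7.7e-04). Mavs, the mitochondrial adaptor below Ifih1, was higher at 0.51 ± 0.088 (SE, limma adjusted p = 0.0191) and lost the call with any 1 of the 4 arrays left out (up to 0.105).

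Of the 4 enzymes that join Isg15 to proteins, 2 were lower and none higher, against 18.3% lower and 20.6% higher over all genes. The activating enzyme Uba7 was lower at -1.31 ± 0.11 and the conjugating enzyme Ube2l6 at -1.09 ± 0.11 (SE, limma adjusted p = 0.0035 and 0.0049). The ligases Trim25, at 0.023 ± 0.083, and Herc6, at -0.068 ± 0.083 (SE), did not pass. Of 15 inhibitors of the pathway, 2 were higher, Cyld at 0.85 ± 0.081 and Irf2bp1 at 0.51 ± 0.081 (SE, limma adjusted p = 0.0045 and 0.0160), and 2 were lower, Rnf125 at -1.87 ± 0.12 and Tnfaip3 at -1.28 ± 0.16 (SE, limma adjusted p = 0.0016 and 0.0097). The 2 higher and the 2 lower were each 13.3% of the inhibitors, below the shares over all genes, and nothing is read from these counts. Cyld and Tnfaip3 remove ubiquitin from signalling proteins, and Rnf125 adds it to RNA sensors. A second, dimmer probe of Cyld differed by only 0.22. The call for Irf2bp1 was lost with any 1 of the 4 arrays left out (up to 0.0922).

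**Figure D4:**
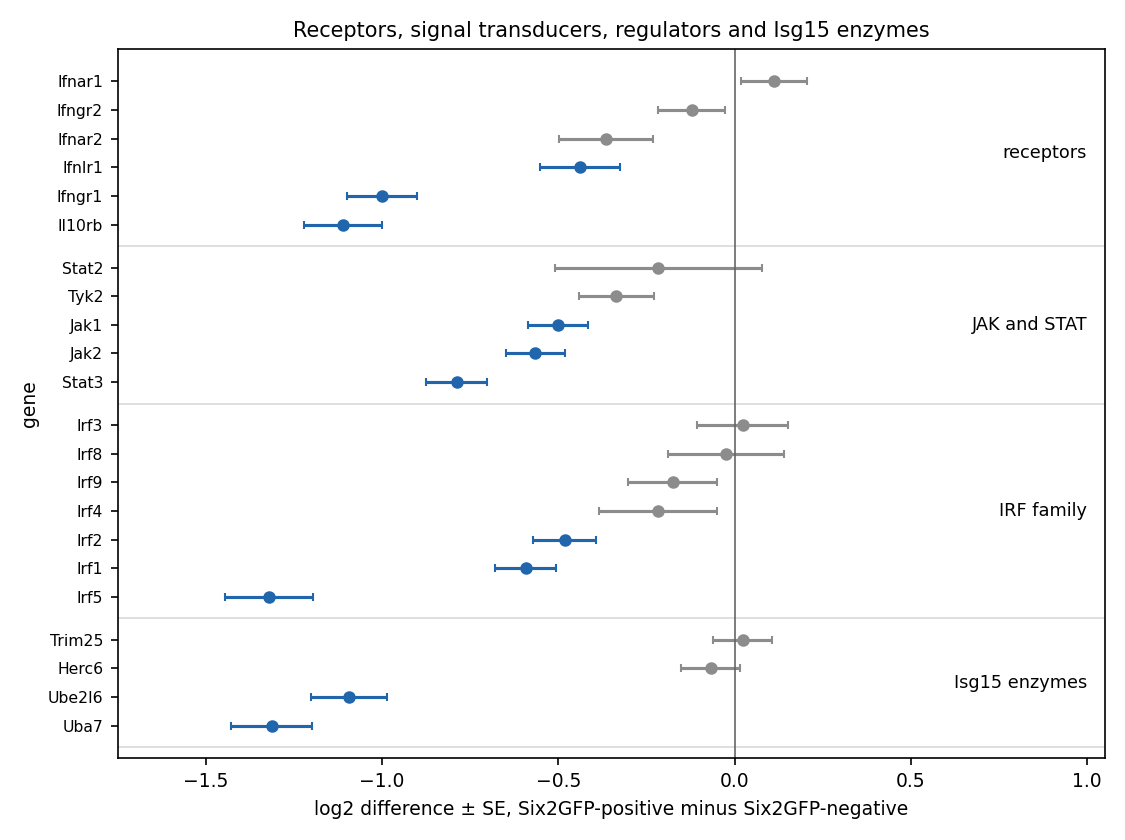
Log2 difference, Six2GFP-positive minus Six2GFP-negative (horizontal axis), with limma's standard error as bars, for each gene (vertical axis) among the receptor chains, kinases and STAT proteins, interferon regulatory factors and Isg15 enzymes; blue marks genes past an adjusted p of 0.05 and grey the others. Ifnar1, Irf3 and Irf9 lie close to 0 and are grey, while Irf5 and Uba7, at -1.32 and -1.31, lie furthest to the left.

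Lists of markers of other kidney cells are set beside the members here. Over all genes 18.3% were lower in Six2GFP-positive cells and 20.6% higher. Of 23 leukocyte markers 11 were lower in Six2GFP-positive cells and none higher, with a median of -1.09, and their summed signal, in units of the array's percentile, was 25.01 and 19.99 in Six2GFP-positive cells, against 34.51 and 28.82 in Six2GFP-negative cells. Without Itgam and Csf1r, the 2 brightest, the sums were 9.88 and 6.56 in Six2GFP-positive cells, against 18.3 and 16.5 in Six2GFP-negative cells. The general leukocyte marker Ptprc differed by -1.70 ± 0.17 (SE, limma adjusted p = 0.0053). Markers of macrophages and other myeloid cells were split. Lyz2 at -2.54 ± 0.13 and Fcgr1 at -1.60 ± 0.29 were lower (SE, limma adjusted p = 9.9e-04 and 0.0226). Csf1r at -0.53 ± 0.21 and Adgre1 at -0.68 ± 0.21 (SE) were among the 12 leukocyte markers that did not pass. No leukocyte marker was below background on both positive arrays. Of 18 endothelial markers 17 were lower, with a median of -5.08, and their summed signal was 11.02 and 10.77 in Six2GFP-positive cells, against 54.68 and 52.89 in Six2GFP-negative cells. Egfl7 and Kdr made up most of the sum in the progenitors, and the other 16 markers summed to 1.19 and 1.23 in Six2GFP-positive cells, against 28.7 and 26.9 in Six2GFP-negative cells; Kdr differed by 0.066 at its brighter probe and by -5.29 at its other probe. Of 8 markers of plasmacytoid dendritic cells, which secrete type I interferon, 3 were lower and 1 higher, with sums of 81.8 and 94.1 in Six2GFP-positive cells, against 80.8 and 67.6 in Six2GFP-negative cells. Nearly all of those sums came from Siglech, with a second probe at -0.72 beside 0.17 for the brighter one, and Tcf4; the other 6 markers summed to 0.064 and 0.067 in Six2GFP-positive cells, against 0.13 and 0.12 in Six2GFP-negative cells. Sums without the 2 brightest markers were added after the data were seen. Stroma (9 of 10 lower), erythroid cells (8 of 9) and ureteric bud (11 of 12) also fell with the sort. The part of these cells in the members' differences was not tested, and in sorted bulk samples fewer cells of a type and less RNA per cell cannot be told apart.

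The genes whose values over the 4 arrays lay closest to the mean centred profile of the 8 measured members, by root mean square distance in log2 units among 22275 genes well above background on every array, were Cideb (0.013), Plekha4 (0.020), Mansc1 (0.027), Defb29 (0.032) and Kit (0.036). In all, 86 genes lay within 0.1. Cideb read -2.10 and -2.38 in Six2GFP-positive cells, against -0.37 and -0.38 in Six2GFP-negative cells. The likeness rests on 4 arrays in 2 groups.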

How the data were processed

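RNA of sorted E15.5 mouse kidney cells was hybridised to Agilent arrays of design 026655. The authors quantified the scans in Feature Extraction 10.7.3.1 (protocol GE1_107_Sep09), per the file headers, which also place the probes on mm9. The deposited intensity values per spot, the processed signal, are linear, background-subtracted and detrended within the array, and not normalized between arrays. The series' deposited value table holds the same linear intensity: on each array 99.6% to 99.7% of probes lay within 0.01 log2 of the scanner value, with array medians of 114 and 110 for positive cells and 158 and 144 for negative cells, so its scale, centring and direction are settled.

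Each array carried 43020 spots, for 39429 probes other than controls. Spots flagged as outliers (108 to 174 an array) were removed and spots of a probe averaged; 34 probes were dropped and no spot was saturated. Main values are log2 processed signal minus the array's 75th percentile. A probe stayed if either group had it well above background on both of its arrays (30012 probes), and a gene was represented by its brightest probe (24150 genes). Of the probes, 26055 were named through their accession in RefSeq's gene table, 3195 bore a current symbol and 10179 kept the file's name.

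The groups were set against each other in R 4.3.3 by limma 3.58.1: lmFit, then eBayes, with two-sided p-values adjusted over all genes by Benjamini-Hochberg and a threshold of 0.05, after a test on simulated data. Folds against a group not above background are bounds, against the higher of the probe's own signal and the lowest signal well above background. These bounds hold for the main processing only, and differences shrank under some alternatives. The number of arrays limits the precision. The members, the lists and the rule for named genes were chosen with earlier results of these data known. That rule took the members; receptor chains, JAK-STAT genes, interferon regulatory factors, Isg15 enzymes and ligands; the 4 other interferon-stimulated genes, 2 sensors and 2 inhibitors with the largest difference in each direction; Six2 and Cited1; and the 5 genes closest in pattern. Genes named beyond it, in families, as neighbours, as markers or for their spread, were chosen after their values were seen; some genes the rule covers are not reported here.

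Alternatives were array median and quantile scaling, normexp correction (offset 50) with either the 75th percentile or quantile scaling, the series table, no filter, detection on all 4 arrays, averaging a gene's probes, limma's trend and robust options, the replicate block and dropping 1 array at a time. The arrays shared 1 slide and scan. Promoters come from RefSeq (GRCm38.p6); Usp18 had none in the table.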

Additional observations from a re-analysis of the deposited data

How the results depend on the processing

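Of 46 named genes past the threshold, 30 kept their direction and their call under every alternative run and 16 lost the call under at least 1; of 22 named genes not past it, 7 passed under at least 1. With 1 array left out, where the lone array is assumed to vary like the other group, 1267 to 2172 genes were higher and 3161 to 3531 lower in Six2GFP-positive cells, against 4973 and 4421 with all arrays; the ranges were 1 to 2 higher and 32 to 39 lower for the other interferon-stimulated genes, and 1 higher and 14 to 15 lower for the pathway. Scaling to the array median, which moved the median of all genes to 0.40, gave 10756 genes higher and 3769 lower, with 11 higher among the other interferon-stimulated genes and 17 in the pathway. The counts higher were 5 and 9 under quantile normalization, 6 and 10 under normexp with the 75th percentile and 6 and 5 with trend and robust variance; normexp with quantile scaling gave 11 in the pathway. Without a filter 2612 genes were higher. The longer motif stood in 3 members. Array 1 minus array 2 correlated at 0.22 between the groups over 24150 genes, but the labels do not say that the replicate numbers pair samples; with the number as a block, 5 pathway genes were higher and 24 lower, and 4 other interferon-stimulated genes were higher and 44 lower. For these counts and the reversals below the cause was not tested.

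Signs turned as follows. Under the array median, differences were 0.13 for Ifngr2, 0.036 for Stat2, 0.23 for Irf8, 0.078 for Irf9, 0.034 for Irf4, 0.18 for Herc6, 0.17 for Ifna1, 0.11 for Ifnl3, 0.024 for Ifnk and 0.14 for Ifit2. Under quantile normalization they were -0.014 for Ifnar1, -0.14 for Irf3, 0.019 for Irf8, 0.040 for Irf4, -0.12 for Trim25, 0.22 for Herc6, 0.17 for Ifna1, 0.065 for Ifnl3, 0.054 for Ifnk and 0.099 for Ifit2. Under normexp with the 75th percentile they were -0.017 for Irf3, 0.069 for Irf4, 0.048 for Herc6, 0.016 for Ifnk, 0.040 for Ifna16, 0.014 for Ifit1 and 0.023 for the dimmer Isg15 probe. Normexp with quantile scaling gave -0.012 for Ifnar1, -0.18 for Irf3, 0.028 for Irf8, -0.10 for Trim25, 0.15 for Herc6, 0.15 for Ifna1, 0.069 for Ifnl3 and 0.11 for Ifit2. The mean of probes gave -0.14 for Ifnar1. Without 1 array, ranges that crossed 0 were -0.57 to 0.14 for Stat2, -0.11 to 0.15 for Irf3, -0.17 to 0.13 for Irf8, -0.0089 to 0.054 for Trim25, -0.063 to 0.18 for Ifna14, -2.20 to 0.13 for Ifnab and -1.97 to 0.60 for the dimmer Isg15 probe; Ifnab passed without negative array 1 alone (adjusted p = 0.0095). At least 1 array was not well above background for Ifit1, Ifit3, Irf7 and the dimmer Isg15 probe, which limits them.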

Other observations

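Ifi204, another member of the family of nuclear DNA-binding proteins that holds Ifi203, showed the widest spread between samples of a group among the other interferon-stimulated genes. It read 0.71 and -3.15 in Six2GFP-positive cells, against 0.42 and -1.55 in Six2GFP-negative cells, so array 1 exceeded array 2 by 3.86 in Six2GFP-positive cells and by 1.98 in Six2GFP-negative cells. Its groups overlapped, and the difference of -0.66 ± 1.55 (SE, limma adjusted p = 0.759) was smaller than the spread within either group.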
